A study of Mus musculus with 8 samples.

Results

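The genes described here encode the receptors through which sensory neurons of the mouse dorsal root ganglion (DRG) respond to glutamate, GABA, glycine, acetylcholine and, through its ion channel form, serotonin. They were chosen by symbol: the AMPA, kainate, NMDA and delta receptor subunits and the metabotropic glutamate receptors (Gria, Grik, Grin, Grid and Grm followed by a digit), and all symbols that begin with Gabr, Glra, Glrb, Chrna, Chrnb, Chrnd, Chrne, Chrng or Htr3. This gave 68 of the 22609 genes in the count tables, and symbols ending in ip were left out by the rule. RNA was sequenced from 4 female and 4 male preparations of C57BL/6J mice, 8 to 12 weeks old, all naive, with the females in the estrous phase. Every mouse, of either sex, had received the fluorescent lectin conjugate WGA-488 in hindpaw skin and thigh muscle, and lumbar DRG neurons that had carried it back to their cell bodies were isolated 2 days later by fluorescence-activated sorting, so each library is a mixture of skin and muscle neurons. SMART-seq2, which amplifies oligo-dT-primed cDNA from nanograms of RNA, gave the libraries, and each sample held 6 DRG, the lumbar levels L3 to L5 of both sides, so that p-values measure the spread between such samples.

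Most of these genes encode subunits of ligand-gated ion channels. AMPA, kainate and NMDA receptors are tetramers opened by glutamate, whereas GABA-A, glycine, nicotinic and 5-HT3 receptors are pentamers of the Cys-loop family, the GABA-A and glycine types conducting chloride and the nicotinic and 5-HT3 types conducting cations. Metabotropic glutamate receptors are not channels and signal through G proteins. In DRG neurons such receptors sit on the cell body, on the peripheral ending and on the central terminal in the spinal cord, where they regulate transmitter release.

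The libraries held 4.8 to 7.33 M gene reads (M, 1e6 reads), and 3 reads, taken as the floor of a library, were worth 0.409 to 0.625 CPM (counts per 1e6 gene reads). The 68 receptor genes took 0.219 to 0.233% of the gene reads in 7 libraries and 0.175% in female replicate 4, which stood apart in several receptor classes and is marked in the plots. Markers of the labelled cell type were abundant, and 10 pan-sensory neuron genes summed to 14304 to 19512 CPM in females and 15314 to 15846 CPM in males. Summed markers of satellite glia and Schwann cells ranged from 11630 to 14948 CPM in females and from 5450 to 11226 CPM in males without overlap. Apoe held much of this sum, with means of 8940 and 5818 CPM. Summed fibroblast (163 to 202 against 82.1 to 140 CPM) and macrophage markers (15.4 to 37.7 against 6.69 to 14.2 CPM) were likewise lower in every male library. By the mean log2 level of the listed genes, the sexes overlapped for glia (6.56 in female replicate 1, 6.58 in male replicate 3). They also overlapped for macrophages (0.956 in female replicate 1, 0.986 in male replicate 2), but not for fibroblasts. Some listed genes, among them Pmp22, Pdgfra and Pdgfrb, had higher means in males. Peptidergic neuron markers summed to 4644 to 6082 CPM in females and 5454 to 7818 CPM in males, and myelinated neuron markers to 9172 to 14389 and 6944 to 11064 CPM. The part of these shifts in the receptor results was not tested, and in such bulk samples fewer cells of a type and less RNA per cell cannot be told apart.

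The question addressed first was which receptor subunits were read in the libraries of labelled neurons. Since these libraries also held glial transcripts, the levels are those of the mixture, and the cell type behind each receptor was not tested. Levels of different genes were compared per length, as RPKM (CPM per kilobase of annotated exons), averaged over the 8 libraries. Kainate and 5-HT3 receptor genes were the most abundant classes, at 27.2% ± 4.20 and 26.0% ± 7.90 (SD, n = 8) of the summed receptor RPKM. The neuronal nicotinic beta subunits followed with 9.07%, the glycine receptor subunits with 9.0% and the neuronal nicotinic alpha subunits with 8.53%. GABA-A alpha subunits took 4.6%, metabotropic glutamate receptors 4.35%, GABA-A gamma, delta, epsilon, theta and pi subunits together 3.90%, NMDA subunits 2.98%, AMPA subunits 2.38% and GABA-A beta subunits 1.47%. Delta receptor, muscle nicotinic and GABA rho genes stayed at 0.182%, 0.167% and 0.0629%. Per length of the longest transcript the NMDA share was 5.72%, above those of the metabotropic glutamate (5.30%) and GABA-A alpha genes (4.18%), so the order of these lower classes depends on the length used. The order of the first 5 classes is not fixed within the spread: the 5-HT3 share reached 44.4% in female replicate 4 against 19.9 to 27.1% in the other 7 libraries, and the kainate share was 20.2% there against 23.7 to 33.0%.

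**Figure D1:**
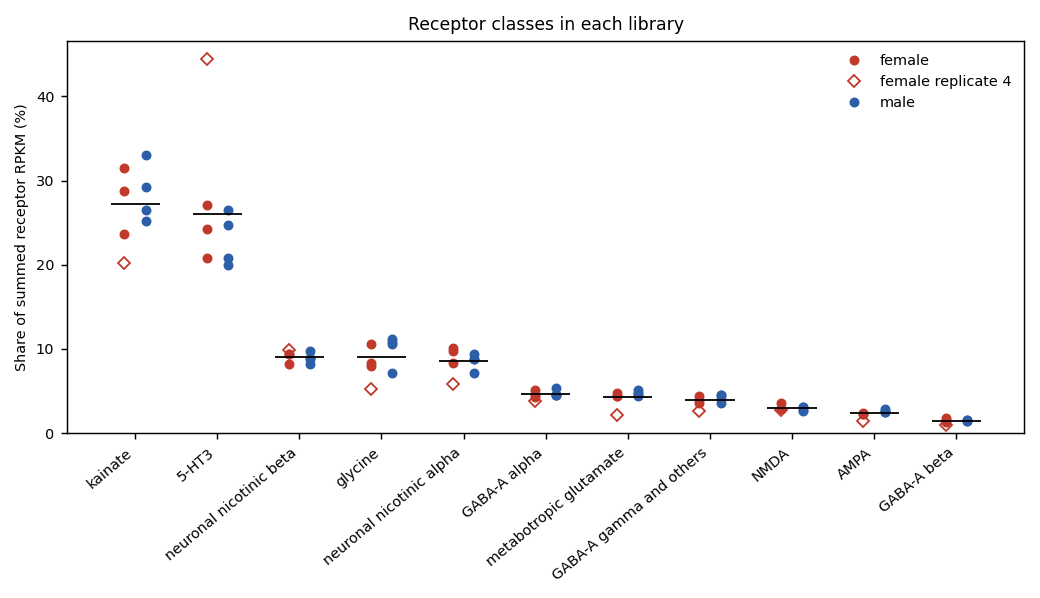
Share of each receptor class in the summed RPKM of the 68 receptor genes (y axis, %), by class (x axis); points are libraries, the open diamond is female replicate 4 and the bar is the mean of 8 libraries. Classes whose mean share is under 1% are not drawn. Kainate and 5-HT3 genes stand above the rest in every library, and the 44.4% share of 5-HT3 belongs to female replicate 4.

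In most classes a single gene held most of the level. The AMPA genes had no such leader, and the lead of Chrna6 among the neuronal nicotinic alpha and of Gabra2 among the GABA-A alpha genes fell under 50% in some libraries. Grik1, which encodes the kainate receptor subunit GluK1, reached 146.9 ± 26.5 RPKM (SD, n = 8) and 92.1% of its class (range 90.7 to 93.2%). It was represented by 3979, 3385, 2084 and 1895 reads in female replicates 1 to 4 and by 4244, 3455, 2819 and 3177 reads in the males, so that the 2 lowest libraries were both female while the sexes overlapped. Its partner Grik4, a subunit that needs another kainate subunit to form a channel, was next at 9.90 RPKM. Grik5, Grik3 and Grik2 had 0.986, 0.838 and 0.730 RPKM, and Grik2 had 1.26 RPKM per length of its longest transcript. The auxiliary kainate subunits Neto2 and Neto1 were read in every library, with 35 to 105 and 14 to 32 reads.

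Serotonin-gated channels were represented almost wholly by Htr3a, the subunit that every 5-HT3 receptor contains, at 137.6 ± 35.4 RPKM. Htr3b, which joins Htr3a in mixed channels, had 13.0 ± 2.59 RPKM, and the ratio was steady: Htr3b made 7.40 to 9.93% of the class in every library. Htr3a had 2042, 1361, 1502 and 2647 reads in female replicates 1 to 4 and 1569, 1511, 1817 and 1877 reads in the males. Female replicate 4, the lowest library for Grik1, was the highest for Htr3a, and per length Htr3a exceeded Grik1 in 3 libraries (female replicates 3 and 4 and male replicate 3) and Grik1 exceeded Htr3a in 5. Which of these genes ranks first is therefore within the spread between libraries. In mm9 the genes lie side by side on chromosome 9, Htr3a at 48707319-48719204 and Htr3b at 48743113-48773095, both on the minus strand.

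Ionotropic glutamate receptors other than kainate were led by Grin1, the obligatory subunit of NMDA receptors, at 15.4 ± 2.03 RPKM (35.0 RPKM per length of its longest transcript), with 1194, 874, 895 and 724 reads in females and 1083, 1032, 824 and 924 reads in males. Of the subunits that normally join it and bind glutamate, Grin2b had no read in any library, Grin2a had 1 read in all and Grin2c had 11 reads over 8 libraries, whereas Grin2d was read in every library (10 to 22 reads, 0.432 RPKM). The glycine-binding Grin3a and Grin3b had 0.975 and 0.525 RPKM, and Grin1 alone made 86.1 to 92.6% of the class. A total of 0 reads in 50.65 M gene reads allows up to 0.0592 CPM for Grin2b. Grin3b (over 32.1% of its exon bases) and Grin1 (over 13.5%) share exon sequence with a transcript on the opposite strand, and reads of such partners cannot be told apart without strand.

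AMPA receptor genes were spread more evenly. Gria4 had 6.54 ± 1.64, Gria2 3.29 ± 0.726, Gria1 2.85 ± 0.732 and Gria3 1.30 ± 0.252 RPKM, and Gria4 made 40.1 to 51.0% of the class. Gria2, whose edited product makes AMPA channels nearly impermeable to calcium, made 18.2 to 29.1%. Of the auxiliary AMPA subunits, Cacng5 (30.4 ± 4.82 CPM in females and 24.0 ± 9.52 CPM in males) and Cacng2 (11.7 ± 1.72 and 10.4 ± 2.23 CPM) were read in every library, while Cacng4, Cacng7 and Cacng8 had at most 9 reads in any library. The delta receptor gene Grid1 reached 0.917 RPKM. Cbln2, a secreted ligand of that receptor class, was read at 60.9 ± 10.7 CPM in females and 45.7 ± 9.62 CPM in males, whereas its relatives Cbln1, Cbln3 and Cbln4 had at most 5 reads in any library.

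Among metabotropic glutamate receptors, Grm7, a presynaptic receptor that lowers transmitter release, made 77.5 to 92.3% of the class. It had 988, 809, 603 and 311 reads in females and 1157, 924, 856 and 857 reads in males, a mean of 21.6 ± 5.41 RPKM. The 311 reads of female replicate 4 correspond to 8.90 RPKM, against 21.3 to 26.8 RPKM in the other 7 libraries. Grm8 and Grm4, which belong to the same inhibitory group III as Grm7, followed with 1.75 and 1.64 RPKM. Grm5, a group I receptor that raises intracellular calcium, stayed at 0.157 RPKM, and the group II genes Grm3 and Grm2 at 0.308 and 0.0264 RPKM. No read mapped to Grm6, a receptor of retinal bipolar cells.

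The GABA-A receptor is usually built from alpha, beta and gamma subunits. Gabra2 led the alpha subunits with 14.5 ± 1.59 RPKM, 54.5% of that group (range 45.1 to 64.5%), and Gabra3 (2.46 RPKM), Gabra5 (1.59 RPKM) and Gabrg1 (4.49 RPKM) were also read in every library. Gabra2 was the steadiest of these, with 12.96 to 18.1 RPKM, while Gabrg1 ran from 1.46 RPKM in male replicate 1 to 7.35 RPKM in male replicate 2. Gabrb2 and Gabrb1 had 1.13 and 0.960 RPKM. Gabra6, the alpha subunit of cerebellar granule cells, and Gabrp had no read. Gabrd, Gabra4, Gabre, Gabrg3, Gabrq and the rho subunits Gabrr1, Gabrr2 and Gabrr3 each had a mean under 0.4 RPKM. In single libraries, Gabrd reached 0.820 (female replicate 4), Gabrr1 0.597 (male replicate 1) and Gabra4 0.505 RPKM (female replicate 2). Gabbr1 and Gabbr2, the subunits of the G protein-coupled GABA-B receptor, which are not among the 68 genes, were read at 172 ± 45.7 and 40.8 ± 8.96 CPM in females and 196 ± 20.4 and 44.6 ± 3.41 CPM in males.

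Glycine receptor genes gave the most uneven class. Glrb, the beta subunit, which anchors the receptor to gephyrin but does not form a channel alone, had 52.7 ± 13.7 RPKM and 1173, 969, 1025 and 539 reads in female replicates 1 to 4 and 992, 1432, 1324 and 1400 reads in male replicates 1 to 4. The lowest library was again female replicate 4, and the sexes overlapped. The alpha subunits, which carry the glycine site, were at or near 0: Glra2 had 10 reads over all libraries, Glra1 had 3 reads, all in female replicate 1, Glra4 had 2 and Glra3 had none. Glrb thus made 99.4 to 100% of its class in every library. Gphn, the gephyrin gene, was read at 50.9 ± 13.0 CPM in females and 52.1 ± 2.68 CPM in males, and Slc6a5, the glycine transporter of glycinergic neurons, had no read. Upstream sequences of the abundant beta subunit and of the unread Glra3 are shown because these subunits of the same receptor lie at the ends of the range. Each is the 250 bases before the RefSeq start in build GRCm38.p6, written 5′ to 3′ on the gene's strand, with CG dinucleotides in capitals, Glrb from chr3:80913661-80913910 (minus strand) and Glra3 from chr8:55940168-55940417 (plus strand).
Glrb: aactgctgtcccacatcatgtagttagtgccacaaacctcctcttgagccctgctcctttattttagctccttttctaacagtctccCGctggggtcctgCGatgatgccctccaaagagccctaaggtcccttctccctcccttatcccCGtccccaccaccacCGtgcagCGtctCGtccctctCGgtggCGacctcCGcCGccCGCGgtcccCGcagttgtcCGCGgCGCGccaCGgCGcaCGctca
Glra3: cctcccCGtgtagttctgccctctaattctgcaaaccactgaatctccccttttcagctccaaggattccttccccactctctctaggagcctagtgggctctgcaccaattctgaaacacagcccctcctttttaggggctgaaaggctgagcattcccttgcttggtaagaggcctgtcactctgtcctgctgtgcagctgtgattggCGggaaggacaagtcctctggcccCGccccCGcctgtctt
The Glrb window holds 20 CG and the Glra3 window 4.

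Neuronal nicotinic receptors were represented by several subunits. Chrnb2, the beta subunit of most brain nicotinic receptors, had 40.3 ± 1.86 RPKM, with 1634, 1290, 978 and 1309 reads in females and 1673, 1443, 1341 and 1359 reads in males. In CPM it was the steadiest of the abundant receptor genes, from 201 to 228. Chrna6 followed with 27.7 ± 6.28 RPKM (42.8 to 73.2% of the alpha class) and Chrna7, which forms channels on its own, with 15.7 ± 6.78 RPKM. The order of these alpha subunits is not fixed: Chrna7 was above Chrna6 in male replicate 3 (24.6 against 22.8 RPKM), and per length of the longest transcript the means were 25.4 and 27.7 RPKM. Chrna7 had 710, 431, 419 and 82 reads in females and 377, 372, 678 and 544 reads in males, so that female replicate 4 lay at 3.04 RPKM, below the 11.3 to 24.6 RPKM of all other libraries. Chrnb3, a subunit that joins Chrna6 in many receptors, had 7.46 RPKM, Chrnb4 5.01 RPKM, Chrna3 4.20 RPKM, Chrna4 1.41 RPKM and Chrna10 0.952 RPKM. Chrna4, the usual brain partner of Chrnb2, thus stood below Chrna6 in every library. Chrna2, Chrna5 and Chrna9 had at most 2 reads in any library.

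Genes of the muscle-type nicotinic receptor, which sits on muscle fibres, were low. Chrnb1 had 0.682 RPKM and Chrna1 0.222 RPKM, Chrne was read at most 2 times in a library, and Chrnd and Chrng had no read. Of the 11 skeletal muscle markers, Myh2, Tnnt3, Tnnc2 and Myog had no read, and the list summed to 4.34 to 5.83 CPM in females and 2.07 to 3.0 CPM in males. Enzymes and transporters of the transmitters themselves were uneven too. Chat and Slc18a3, the acetylcholine enzyme and vesicular transporter, and Slc32a1, the vesicular transporter of GABA and glycine, had no read, while Ache, which breaks down acetylcholine, was read at 199 ± 40.1 CPM in females and 180 ± 16.7 CPM in males. Gad1, which makes GABA, stayed at 1.25 ± 0.41 and 1.24 ± 0.32 CPM.

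**Figure D2:**
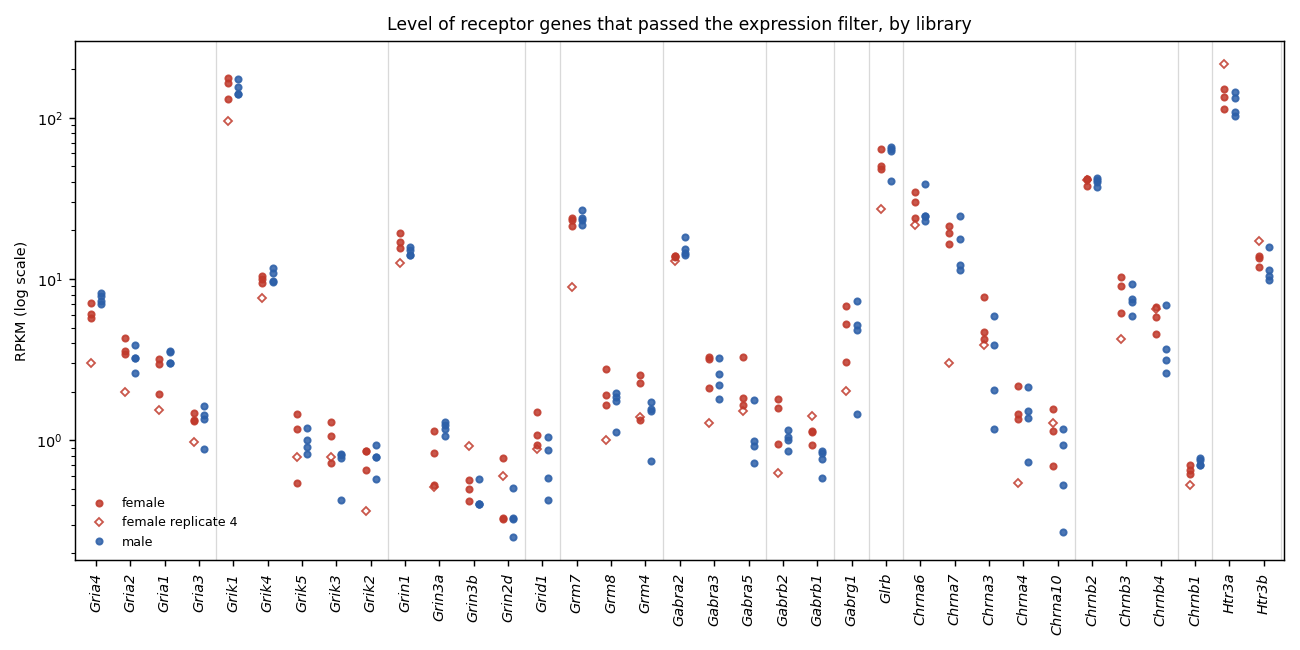
RPKM (y axis, log scale) of 35 receptor genes that passed the expression filter, grouped by class (x axis); points are libraries, red for females and blue for males, and the open diamond is female replicate 4. Grik1 and Htr3a lie highest, at means of 146.9 and 137.6 RPKM, and female replicate 4 is the lowest point for Glrb, Grm7 and Chrna7 and the highest for Htr3a.

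Many of the genes lie next to each other in the genome, and neighbours were often far apart in level. In mm9, 29 of the 68 genes fell into 11 clusters with gaps under 1000000 bases. On chromosome 11, Gabrb2 (1.13 RPKM) lies in a cluster with Gabra6, which had no read, and on chromosome 5, Gabrg1 (4.49 RPKM) and Gabra2 (14.5 RPKM) lie beside Gabra4 (0.251 RPKM) and Gabrb1 (0.960 RPKM). On chromosome 7, Gabra5 (1.59 RPKM) lies beside Gabrg3 (0.0313 RPKM). On chromosome 8, Chrnb3 (28479183-28510201) and Chrna6 (28513686-28524416), both read in every library, lie on opposite strands. Across the 8 libraries, both were highest in the same 3 libraries, female replicates 1 and 2 and male replicate 1, in CPM.

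The nicotinic cluster of mm9 chromosome 9 holds Chrna5 (54828687-54855586), Chrna3 (54859150-54874366) and Chrnb4 (54875963-54896351). Chrna3 and Chrnb4, which together form the ganglionic nicotinic receptor, had 4.20 ± 2.05 and 5.01 ± 1.71 RPKM, while Chrna5, an accessory subunit of that receptor, had 4 reads in all. Chrna3 was read 175, 85, 64 and 72 times in females and 27, 43, 74 and 125 times in males, and Chrnb4 171, 92, 98 and 134 times in females and 81, 87, 55 and 163 times in males. The windows before Chrna3 and Chrnb4 are shown as those of neighbouring subunits expressed at similar levels, Chrna3 from chr9:55026563-55026812 and Chrnb4 from chr9:55048545-55048794, both on the minus strand of GRCm38.p6 and with CG in capitals.
Chrna3: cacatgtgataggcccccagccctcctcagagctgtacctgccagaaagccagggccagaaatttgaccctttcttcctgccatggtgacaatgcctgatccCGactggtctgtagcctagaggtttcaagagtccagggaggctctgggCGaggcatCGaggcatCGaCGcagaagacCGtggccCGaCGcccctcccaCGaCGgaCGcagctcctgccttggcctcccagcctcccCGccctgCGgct
Chrnb4: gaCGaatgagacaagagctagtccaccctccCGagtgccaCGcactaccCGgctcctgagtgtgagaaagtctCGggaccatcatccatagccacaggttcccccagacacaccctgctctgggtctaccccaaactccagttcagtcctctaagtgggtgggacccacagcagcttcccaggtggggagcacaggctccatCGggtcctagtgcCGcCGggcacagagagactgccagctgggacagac
They hold 13 and 8 CG. The window before Htr3b is shown as that of an abundant gene with few CG, since it holds 1 CG at 13.0 RPKM, from chr9:48964991-48965240 on the minus strand of GRCm38.p6.
Htr3b: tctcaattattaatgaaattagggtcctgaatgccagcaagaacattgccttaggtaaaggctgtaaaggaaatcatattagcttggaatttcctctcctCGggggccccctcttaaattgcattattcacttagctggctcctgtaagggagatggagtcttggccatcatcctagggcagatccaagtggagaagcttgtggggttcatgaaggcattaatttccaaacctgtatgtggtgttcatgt

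Of the 68 genes, 47 had a RefSeq promoter entry, and Grik1, Htr3a and Chrna6 were among those without one. Where a gene had several starts, the start with the most CG was used. The 18 genes at 1 RPKM or more had a median of 14.5 CG in the 250 bases and 11 of them had 10 or more, the 12 genes between 0.1 and 1 RPKM a median of 8.5 (5 with 10 or more), and the 17 genes under 0.1 RPKM a median of 4 (5 with 10 or more). With the start that has the fewest CG, the medians were 11.5, 8 and 4, with 10, 4 and 4 genes at 10 or more. Of all 32851 promoters in the table, where each start counts by itself, 92.1% held a CG, 37.8% held 10 or more, and the median was 6. The groups overlapped: Htr3b and Gabrg1 had 1 CG and Gabra3 none, although all 3 were above 1 RPKM, whereas Gabre, Gabrq, Grm2 and Grin2c, nearly unread, had 21, 19, 16 and 15. These RPKM limits were set after the levels were known, and the counts are a description without a test.

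**Figure D3:**
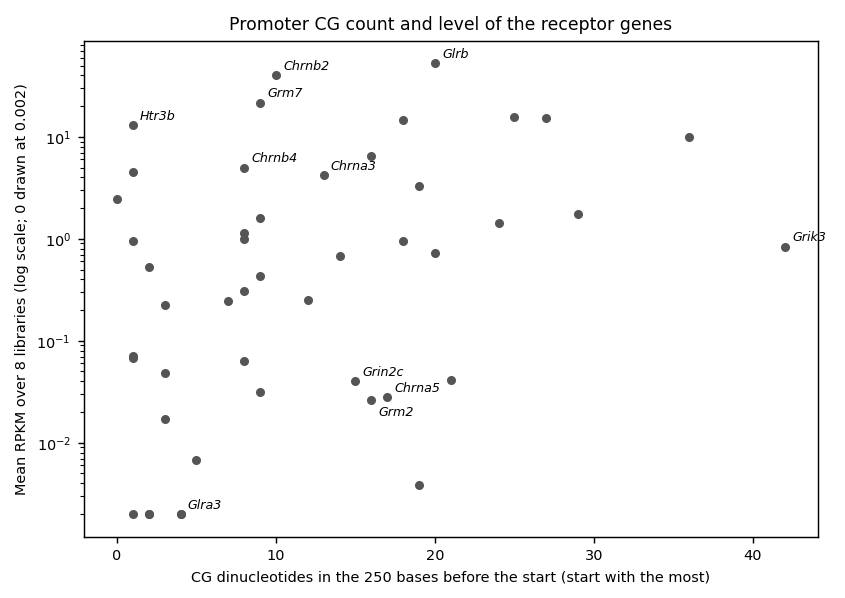
CG dinucleotides in the 250 bases before the RefSeq start (x axis, count) and mean RPKM over 8 libraries (y axis, log scale, a level of 0 drawn at 0.002) of the 47 receptor genes with a promoter entry; each point is a gene. Glrb lies at 20 CG and 52.7 RPKM, Htr3b at 1 CG and 13.0 RPKM, and Grin2c and Grm2 at 15 and 16 CG and under 0.1 RPKM.

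The study set female against male labelled neurons, and the receptor genes were read from a test across all genes. Of the 68 genes, 39 passed the expression filter, and the other 29, with at most 14 reads in any library, were not tested. No receptor gene reached an adjusted p under 0.05 by edgeR's quasi-likelihood test with Benjamini-Hochberg adjustment over 12518 genes, nor by DESeq2 or limma-voom, while 0.0879% of all genes did, sex-linked genes included. At an unadjusted p under 0.05, 1 receptor gene was higher in females and 1 in males, 5.13% of the 39, against 7.11% of all genes (4.44% higher in females and 2.67% in males). DESeq2 and limma-voom each gave 1 and 2. The median log2 fold change, female over male, was −0.02 over the 39 receptor genes and 0.00 over all genes, with 18 receptor genes on the female side and 21 on the male side. The standard errors of the 39 ran from 0.10 to 0.65, so that differences of these sizes were not detectable with 4 libraries per sex. Leaving out 1 library moved the log2 fold change by over 1.5 times, or turned its sign, in 35 of the 39.

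Grin3a, a glycine-binding NMDA subunit that lowers calcium entry, was the gene with the lower p. It was read at 8.39, 18.0, 13.1 and 8.09 CPM in female replicates 1 to 4 and at 19.6, 18.6, 16.8 and 20.4 CPM in male replicates 1 to 4. Female replicates 1 and 4 were lowest and female replicate 2 lay within the male range. Its log2 fold change was −0.69 ± 0.25 (SE), at an unadjusted p of 0.0201 and an adjusted p of 0.641 by edgeR, which ran from 0.409 to 0.972 over its alternatives. Without female replicate 4 the difference was −0.54, and without female replicate 1 it was also −0.54 and the unadjusted edgeR p rose to 0.0580.

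Gabra5, a GABA-A alpha subunit found mainly in extrasynaptic receptors, was read at 4.40, 4.86, 8.75 and 4.04 CPM in females and at 2.46, 4.75, 2.64 and 1.92 CPM in males, from 13 to 42 reads. Female replicate 3 was the highest library, and male replicate 2 lay within the female range. The log2 fold change was 0.87 ± 0.36 (SE), with an unadjusted p of 0.0342 and an adjusted p of 0.679 by edgeR, from 0.368 to 0.972 over its alternatives. Leaving out a library kept the unadjusted p under 0.05 in 4 of 8 cases: it rose to 0.129 without female replicate 3, where the log2 fold change was 0.56, and to 0.0735, 0.0715 and 0.0889 without male replicates 1, 3 and 4, while without female replicate 4 the log2 fold change was 0.99. Over 4.45% of its exon bases Gabra5 overlaps a gene on the opposite strand.

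The sexes did not overlap in 2 of the 39 tested receptor genes, 5.13%, against 5.52% of all genes. Gabrb1, a GABA-A beta subunit, was read at 2.89, 3.47, 3.54 and 4.38 CPM in females and at 2.59, 2.38, 1.82 and 2.66 CPM in males (11 to 26 reads), each female library above each male library. Its log2 fold change was 0.56 ± 0.25 (SE), and the unadjusted p of 0.0508 and the adjusted p of 0.699 by edgeR missed the threshold. Gabra2 was lower in each female library, at 33.1, 32.6, 33.3 and 31.0 CPM against 33.8, 43.4, 36.5 and 34.5 CPM, a log2 fold change of −0.21 ± 0.13 (SE; unadjusted p of 0.131, adjusted p of 0.768 by edgeR). Without male replicate 2, the highest library, the log2 fold change of Gabra2 was −0.12. The neighbouring genes of the Gabra2 cluster pointed in different directions, and Gabrg1 had −0.15 ± 0.46.

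**Figure D4:**
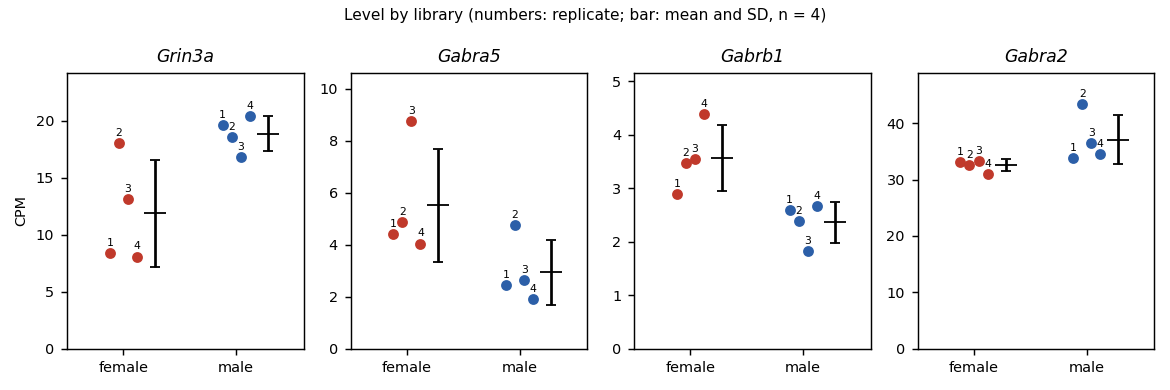
Level (y axis, CPM, from 0) of Grin3a, Gabra5, Gabrb1 and Gabra2 in each female (red) and male (blue) library; digits give the replicate and the bars the mean and SD of 4 libraries. Grin3a and Gabra5 overlap between the sexes through female replicate 2 and male replicate 2, whereas Gabrb1 and Gabra2 do not overlap.

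By class, the AMPA genes had 3 of 4 log2 fold changes on the male side, led by Gria4 and Gria1. Gria4 was read at 38.1, 36.1, 44.6 and 18.9 CPM in females and 46.1, 51.1, 49.5 and 43.8 CPM in males, and its log2 fold change was −0.49 ± 0.22 (SE; unadjusted p of 0.0538 by edgeR). Female replicate 4 was the lowest library, and without it the log2 fold change was −0.28 at an unadjusted p of 0.0276 by edgeR, and without female replicate 3 it was −0.64 at 0.0209. With all libraries, its unadjusted p was 0.0426 by DESeq2 and 0.0356 by limma-voom, and its adjusted p ran from 0.381 to 0.972 over the alternatives. Gria1 had −0.46 ± 0.23, which was −0.29 without female replicate 4, and it passed the unadjusted threshold of edgeR in 2 of 8 such cases, without female replicate 1 (−0.62) and without female replicate 2 (−0.58). The NMDA genes had 3 of 4 on the female side, Grin3a being the exception, and Grin1 had 0.10 ± 0.14. Without female replicate 4, Grin1 had 0.21 at an unadjusted p of 0.0430 by edgeR, and without female replicate 3 it had −0.0022. Grin3b and Grin2d, also on the female side, had only 8 to 18 and 10 to 22 reads. Over all genes tested, 6344 were on the female side and 6174 on the male side.

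Both 5-HT3 genes were on the female side, Htr3a at 0.31 ± 0.19 and Htr3b at 0.23 ± 0.18, and neither passed the unadjusted threshold with all libraries. Without female replicate 4, the highest library for both, Htr3a had 0.11 and Htr3b 0.13. Each passed the unadjusted threshold of edgeR in 1 of 8 such cases, Htr3a without female replicate 2 (0.42, p of 0.0463) and Htr3b without male replicate 3 (0.40, p of 0.0371). The 5 kainate genes split 2 to 3, with Grik1 at −0.12 ± 0.18. Glrb had −0.30 ± 0.24, which was −0.11 without female replicate 4, and Grm7 had −0.33 ± 0.26, which was −0.09 without that library. Of the 8 tested neuronal nicotinic genes, 3 were on the female side (Chrna3, Chrna10 and Chrnb4, from 0.51 to 0.67) and 5 on the male side (from −0.14 to −0.01), with Chrnb2 at −0.01 ± 0.10. Leaving out a library moved each of the 3 on the female side by over 1.5 times in at least 1 case: Chrna3 had 0.37 without male replicate 1 and 1.12 without male replicate 4, Chrna10 0.39 without male replicate 1 and 0.98 without male replicate 3, and Chrnb4 0.35 without male replicate 3 and 0.89 without male replicate 4. Chrna3 and Chrnb4 passed the unadjusted threshold of edgeR in 1 of 8 such cases each, without male replicate 4, and their adjusted p stayed above 0.5 over all alternatives. These standard errors leave differences of their own size open in either direction, and a p above the threshold does not show equal levels.

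**Figure D5:**
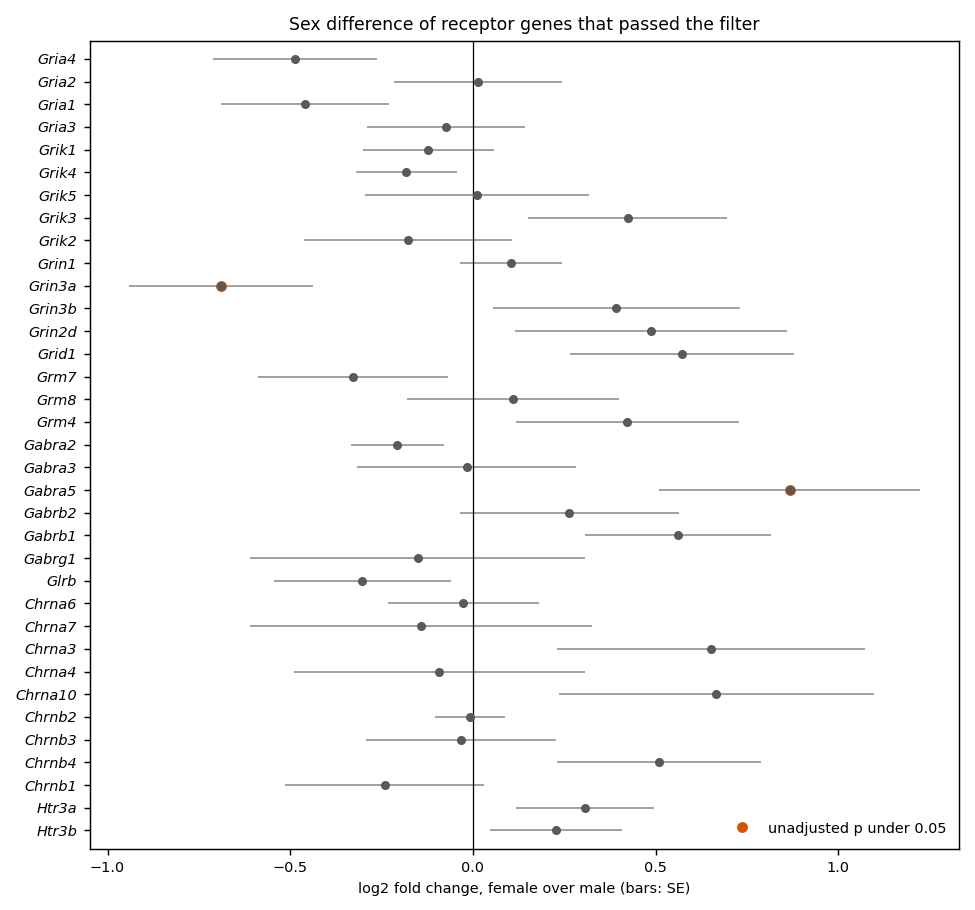
Log2 fold change, female over male (x axis), of 35 tested receptor genes, ordered by class (y axis), from edgeR with 4 libraries per sex. Bars are standard errors, and the 2 genes drawn in orange, Grin3a and Gabra5, had an unadjusted p under 0.05. The points lie on both sides of 0, 17 on the female and 18 on the male side.

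Genes that work with these receptors were followed in 6 lists (auxiliary subunits, scaffolds, the GABA-B receptor, nicotinic chaperones and prototoxins, transmitter enzymes and transporters, delta receptor ligands). Of 101 listed genes, 76 were tested, and at an unadjusted p under 0.05 by edgeR, 6 were higher in females and 1 in males (7.89% and 1.32% of those tested, against 4.44% and 2.67% of all genes). DESeq2 gave 6 and 2 and limma-voom 5 and 2, and no listed gene had an adjusted p under 0.05 by edgeR. The median log2 fold change was −0.02.

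Ly6h and Lypd1 encode prototoxins, small membrane-anchored proteins that bind nicotinic receptors, and had the smallest p of the lists. Ly6h was read at 23.9, 25.2, 37.1 and 37.9 CPM in females and 8.60, 14.6, 22.8 and 13.2 CPM in males, and Lypd1 at 16.9, 27.9, 21.5 and 24.1 CPM in females and 15.6, 12.2, 11.1 and 7.40 CPM in males. For both genes every female library lay above every male library. Such a separation, in either direction, held for 5.52% of all genes tested. The log2 fold changes were 1.05 ± 0.28 for Ly6h (unadjusted p of 0.00333, adjusted p of 0.552 by edgeR) and 0.94 ± 0.24 for Lypd1 (unadjusted p of 0.00249, adjusted p of 0.492 by edgeR), and the unadjusted p stayed under 0.05 for both without any single library. Among the nicotinic subunits, Chrna7 had a log2 fold change of −0.14 ± 0.47 and Chrnb2 of −0.01 ± 0.10, and these were not tested against those of the prototoxins. Of the 10 genes in the list, these 2 passed (20%, against 4.44% of all genes higher in females).

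The other 4 genes higher in females at an unadjusted p under 0.05 were Slc1a5, a transporter of glutamine and other neutral amino acids (0.51 ± 0.17, 38.7 ± 4.67 against 26.9 ± 5.26 CPM), the scaffold genes Homer2 (0.53 ± 0.21, 53.8 ± 16.0 against 36.5 ± 3.69 CPM) and Shank1 (0.84 ± 0.34, 4.98 ± 1.41 against 2.74 ± 1.15 CPM), and Cacng3, an auxiliary AMPA subunit (0.80 ± 0.34, 3.25 ± 0.921 against 1.84 ± 0.700 CPM). Nptx2, a secreted pentraxin that gathers AMPA receptors, was higher in males (−0.42 ± 0.17, 80.3 ± 11.4 against 106 ± 22.9 CPM). Their adjusted p ran from 0.637 to 0.696 by edgeR, and the sexes overlapped in all 5. Slc1a5 kept an unadjusted p under 0.05 without any single library, and the other 4 genes lost it in 4 or 5 of the 8 cases. The gephyrin gene and both GABA-B subunits did not pass the unadjusted threshold.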

How the data were processed

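RNA was sequenced as single reads from 4 female and 4 male samples of sorted, WGA-488-labelled DRG neurons. Per the labels and the study's methods, the authors aligned reads by TopHat2 to mm9 and took gene counts from HTSeq, while the labels name bcl2fastq and the methods CASAVA for demultiplexing. The deposited values are raw counts without normalization. Tool versions, annotation release and strand option are not given in the sources used here. Reads carry no molecular identifiers, so floors and read totals cover counting error only. Depth was 4.8 to 7.33 M gene reads per library. Of the uniquely aligned reads, 39.4 to 42.1% were counted in genes and 57.8 to 60.5% fell outside annotated features. A gene given as without reads is therefore one without counted reads.

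From these counts CPM was computed over gene reads, and RPKM with the union of exons of the GENCODE M1 annotation of NCBIM37 (mm9), in which all 68 members were found. Counts were tested with the edgeR 4.0.16 quasi-likelihood test (R 4.3.3, TMM factors, default expression filter, no covariates, Benjamini-Hochberg adjustment over 12518 genes). The standard error is the size of the log2 fold change divided by the square root of its F statistic. DESeq2 1.42.0, limma-voom (limma 3.58.1), other scalings and filters, the replicate number as a block, leaving out each library and, for levels, the longest transcript were the alternatives. The test was tested on simulated data.

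Upstream sequences were RefSeq's (GRCm38.p6). The members and lists were chosen with earlier results of these data known. Values were given for members with an unadjusted p under 0.05, the leading member of each class and partner genes with an unadjusted p under 0.05. Some genes are counted in the totals but not reported here. Other members are given by level, range and counts, and Gabrb1, Gabra2, Gria4 and other members singled out between the sexes were chosen after their values were seen. Tables were made with pandas 2.3.3 under Python 3.11.15 and plots with matplotlib 3.10.9.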

Additional observations from a re-analysis of the deposited data

Results flagged for a closer look

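In 11 of 116 groups of 4 libraries, the highest or lowest library lay far from the other 3 by Dixon's test, and chance would give about 5.8 if the groups were independent. They are not: all come from the same 8 libraries, and the sums of the glycine and metabotropic glutamate classes repeat their leading genes Glrb and Grm7. In CPM, and set against the range of the other 3 libraries of the same sex, female replicate 4 was low for Grm7 (52.4 against 126 to 140). Male replicate 1 was low for Glrb (135 against 207 to 219) and Grik3 (3.82 against 6.95 to 7.43) and high for Chrna6 (113 against 66.2 to 71.7), Grin3b (1.91 against 1.32 to 1.34) and the partner gene Homer2 (42.0 against 34.3 to 35.2).

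In summed RPKM of a class, male replicate 1 was low for glycine receptor genes (40.6 against 62.1 to 65.5), female replicate 4 low for metabotropic glutamate receptors (11.5 against 26.8 to 29.0), male replicate 2 low for neuronal nicotinic alpha subunits (40.9 against 51.4 to 53.3) and female replicate 2 high for muscle nicotinic genes (1.06 against 0.896 to 0.917). The receptor genes took 0.175% of the gene reads in female replicate 4, against 0.231 to 0.233% in the other females.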

How the results depend on the processing

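No receptor gene had an adjusted p under 0.05 in any alternative. At an unadjusted p under 0.05, the receptor genes higher in females numbered 1, 2 with library size alone or the replicate block, and 0 to 2 when a library was left out (0 without female replicate 3 or male replicate 1). Those higher in males numbered 1, 2 with DESeq2 size factors, no filter, the DESeq2 test or limma-voom, 3 with the replicate block, and 1 to 2 when a library was left out. Without female replicate 4 both counts were 2. Over all genes, 890 had an unadjusted p under 0.05, from 587 (without male replicate 1) to 1453 (without female replicate 4), and 11 an adjusted p under 0.05, 48 by DESeq2, 6 with the replicate block and 7 to 84 when a library was left out (84 without female replicate 1). Partner genes higher in females numbered 6, and 3 to 7 when a library was left out (3 without male replicate 4), and those higher in males 1, 3 with no filter or the replicate block, 2 by DESeq2 or limma-voom, and 0 to 5 when a library was left out (5 without female replicate 1, 0 without female replicate 3 or 4 or male replicate 1 or 4, 2 without male replicate 2). The causes were not tested.

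Neither the labels nor the methods say that same-numbered libraries share more than a number. Their deviations from the group means correlated at 0.0939, −0.109, 0.144 and 0.0048. Female replicate 2 correlated better with male replicate 1 than with its own number. Whether same-numbered libraries were processed together was not tested.

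Chrnb2, Chrna6, Grik1 and Grin1, whose log2 fold changes were small, changed sign. Chrnb2 was 0.0134 with library size alone and ran from −0.0379 to 0.0285 when a library was left out, Chrna6 from −0.161 to 0.193, Grik1 from −0.249 to 0.0281 (the latter without female replicate 4) and Grin1 from −0.0022 (without female replicate 3) to 0.208. Over 22 genes and the alternatives that keep all libraries, 143 log2 fold changes kept their direction and side of the unadjusted threshold, 7 crossed it towards a smaller p and 3 towards a larger, while 1 changed sign. When a library was left out, 137 kept both, 8 crossed towards a smaller p, 23 towards a larger and 8 changed sign.

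With the length of the longest transcript in place of the exon union, Grin1 had 35.0, Grm7 30.2 and Chrnb1 0.801 RPKM, Chrna7 rose from 15.7 to 25.4, Gria3 from 1.30 to 2.47, Grm8 from 1.75 to 2.87, Grin3a from 0.975 to 2.05 and Grik2 from 0.730 to 1.26 RPKM, and the class shares were 5.72% (NMDA), 5.30% (metabotropic glutamate), 4.67% (GABA-A gamma to pi) and 7.97% (neuronal nicotinic beta). The longer exon unions make the difference by construction.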
